A study of Mus musculus with 8 samples.

Results

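The 7 genes that encode inhibitors of cyclin-dependent kinases (CDKs) in mouse, Cdkn1a, Cdkn1b, Cdkn1c, Cdkn2a, Cdkn2b, Cdkn2c and Cdkn2d, were taken by gene symbol from a table of 21878 genes, and all 7 were above 0 in every library. Expression had been measured by mRNA sequencing in 8 mouse libraries labelled as pulmonary endothelial cells, 4 named Ad-control and 4 named Ad-KLK8. KLK8 is kallikrein-related peptidase 8, a secreted serine protease, and the series title places the work in lung injury with endotoxemia. The labels do not spell out the prefix Ad, and they name no strain, age, dose, time after treatment or further agent for either group. They do not say whether the 4 libraries of a group came from separate cultures or animals, so the p-values measure the spread between these libraries, which may be technical.

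CDK inhibitors are small proteins that hold back the kinases driving the cell cycle. Those of the INK4 family (Cdkn2a, Cdkn2b, Cdkn2c and Cdkn2d, encoding p16, p15, p18 and p19) bind Cdk4 and Cdk6 and keep D-type cyclins from activating them. Members of the CIP/KIP family (Cdkn1a, Cdkn1b and Cdkn1c, encoding p21, p27 and p57) bind cyclin and CDK together and block cyclin E and cyclin A complexes with Cdk2, while at low levels p21 and p27 also help cyclin D and Cdk4 to assemble. Cdkn2a also encodes Arf from a start of its own, a protein that restrains Mdm2 and so protects p53. Reads of Arf and of p16 were summed in the deposited Cdkn2a value and could not be separated.

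Between 15758696 and 16747740 reads were assigned to genes in the Ad-control libraries and between 17775433 and 18692134 in the Ad-KLK8 libraries. Klk8 stood at 1135, 1403, 1232 and 1422 RPKM, reads per kilobase of transcript scaled to library depth, in Ad-control replicates 1 to 4 and at 1159, 3263, 1354 and 1276 RPKM in Ad-KLK8 replicates 1 to 4. In the deposited values the groups overlapped, and only Ad-KLK8 replicate 2 lay above every Ad-control library. The log2 change was 0.31 (two-sided exact permutation p = 0.657, smallest possible 0.0286). Without Ad-KLK8 replicate 2 it was −0.04. Each library was also scaled by its median of ratios to the other libraries, as described below. With that scaling the log2 change over all 8 libraries was 0.55 (two-sided exact permutation p = 0.0857). In the deposited values the transcript of Klk8 thus did not check the labels of Ad-KLK8 libraries other than replicate 2. The same library stood apart over all genes: chi-square divided by its degrees of freedom was 18.0 to 19.6 against the other 3 of its group and 2.12 to 2.63 among those 3. The endothelial label was poorly matched: 7 of 12 endothelial markers averaged under 0.1 RPKM, among them Cdh5, with 24 reads in all Ad-control and 3 in all Ad-KLK8 libraries, and Pecam1, with 35 and 13 reads. The 12 markers summed to 26.1 to 28.3 RPKM in Ad-control and 14.4 to 17.8 RPKM in Ad-KLK8 libraries, whereas 8 fibroblast markers summed to 1676 to 1896 and 3818 to 3942 RPKM. Most of the endothelial sum came from Esam, at 20.8 ± 0.835 RPKM in Ad-control and 12.9 ± 1.11 RPKM in Ad-KLK8.

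The deposited RPKM values were compared by limma on log2(RPKM + 1). Genes averaging 0.5 RPKM or more entered the fit, 11998 in all, and were called at an adjusted p below 0.05. At this level 77.7% of the tested genes were called, 25.7% higher and 52.0% lower in Ad-KLK8, and the 2 groups of 4 libraries did not overlap for 72.2% of them, 23.1% with Ad-KLK8 higher and 49.1% with Ad-KLK8 lower. Over all tested genes the log2 change had a median of −0.19. Scaling each library by its median of ratios to the other libraries moved that median to 0.02 and the higher share of the calls from 33.0% to 51.8%, so calls and counts that this scaling changes are given both ways. On a log2 scale with 1 added, the pseudocount makes the change of a gene with a low level look smaller than it is.

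Promoter sequences were available for 6 of the 7 genes in RefSeq (build GRCm38.p6), in 9 windows of 250 bases before to 50 bases after an annotated start. All 9 were searched on both strands for 9 motifs, and 5 windows are shown because they hold the start of the only inhibitor that rose, both starts of its neighbour Cdkn2a on the same strand of chromosome 4, and both starts of Cdkn1a, the most abundant inhibitor. Capitals mark motif matches.
Cdkn2b, chr4:89310983-89311282, minus strand: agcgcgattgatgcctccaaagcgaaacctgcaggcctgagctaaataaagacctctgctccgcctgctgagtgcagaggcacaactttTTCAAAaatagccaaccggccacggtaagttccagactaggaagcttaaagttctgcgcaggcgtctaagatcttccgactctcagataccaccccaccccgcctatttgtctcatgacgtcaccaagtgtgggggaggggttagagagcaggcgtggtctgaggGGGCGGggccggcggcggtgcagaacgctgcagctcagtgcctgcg
Cdkn2a upstream start (Arf), chr4:89294570-89294869, minus strand: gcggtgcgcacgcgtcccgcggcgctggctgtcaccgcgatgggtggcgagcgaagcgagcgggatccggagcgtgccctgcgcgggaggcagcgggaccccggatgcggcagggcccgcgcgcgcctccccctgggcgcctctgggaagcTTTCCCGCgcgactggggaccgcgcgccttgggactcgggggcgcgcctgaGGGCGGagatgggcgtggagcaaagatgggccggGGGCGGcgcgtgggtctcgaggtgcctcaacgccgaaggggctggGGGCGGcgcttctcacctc
Cdkn2a downstream start (p16), chr4:89282143-89282442, minus strand: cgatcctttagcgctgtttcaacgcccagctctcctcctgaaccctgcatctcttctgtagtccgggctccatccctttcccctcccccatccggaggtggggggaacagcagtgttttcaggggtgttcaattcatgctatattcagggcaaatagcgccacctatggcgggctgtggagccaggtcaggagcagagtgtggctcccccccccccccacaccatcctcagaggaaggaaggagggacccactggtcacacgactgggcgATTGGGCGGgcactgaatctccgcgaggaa
Cdkn1a upstream start, chr17:29090729-29091028, plus strand: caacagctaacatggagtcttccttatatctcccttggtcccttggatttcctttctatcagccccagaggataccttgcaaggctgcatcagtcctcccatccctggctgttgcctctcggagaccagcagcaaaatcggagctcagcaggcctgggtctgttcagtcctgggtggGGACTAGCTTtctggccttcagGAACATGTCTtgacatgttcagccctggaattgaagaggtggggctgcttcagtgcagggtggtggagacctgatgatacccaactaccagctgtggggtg
Cdkn1a downstream start, chr17:29093519-29093818, plus strand: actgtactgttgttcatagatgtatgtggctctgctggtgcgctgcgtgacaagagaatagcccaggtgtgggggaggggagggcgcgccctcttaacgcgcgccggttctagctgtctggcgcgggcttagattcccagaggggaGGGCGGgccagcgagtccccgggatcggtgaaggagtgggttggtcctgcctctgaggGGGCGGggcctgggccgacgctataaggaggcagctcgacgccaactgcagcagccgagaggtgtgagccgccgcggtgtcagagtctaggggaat
The Cdkn2b window held 1 GC box (GGGCGG, in 35.7% of the 32851 windows of all genes) and 1 cell cycle homology region (TTTGAA, 17.9%). The Arf start of Cdkn2a held 3 GC boxes and 1 E2F site in its C form (TTTCCCGC, 1.07%), while the p16 start held 1 GC box overlapping 1 CCAAT box (CCAAT, 37.4%). Guanine and cytosine made up 77.0% of the Arf window, 60.3% of the p16 window and 57.7% of the Cdkn2b window. The upstream Cdkn1a window held 2 matches to the decamer of the p53 response element (8.36% of all windows), and the downstream Cdkn1a window held 2 GC boxes and none of these decamers. Of the remaining windows, Cdkn1b held 3 CCAAT boxes and 1 GC box, the 2 windows of Cdkn2c held 4 GC boxes in one and 1 E-box (CACGTG, 7.15%) with 1 CCAAT box in the other, and Cdkn2d held 5 GC boxes, 1 CCAAT box and 1 p53 decamer that overlapped a GC box. No match was found in the 9 windows for the G form of the E2F site (TTTGGCGC, 0.514% of all windows), the FoxO site (GTAAACA, 3.65%) or the AP-1 site (TGANTCA, 7.81%). A match describes the letters of the window, not binding.

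Of the 7 inhibitors, Cdkn2b rose in the Ad-KLK8 libraries and the other 6 fell. Lower calls were made for 6 of 7 inhibitors and for 52.0% of all tested genes, higher calls for 1 of 7 and 25.7%. The split of the 7 is a description and was not tested. The largest change was that of Cdkn1c, the only inhibitor called at least 2-fold lower, where 9.85% of all tested genes were. After median-of-ratios scaling 5 of the 7 remained past the threshold (77.2% of all tested genes, 40.0% higher and 37.2% lower), Cdkn2b higher and Cdkn1b, Cdkn1c, Cdkn2c and Cdkn2d lower, while the lower calls of Cdkn1a and Cdkn2a were lost. The 2 groups of libraries did not overlap for any of the 7 genes in the deposited values, as for 72.2% of all tested genes. Without Ad-KLK8 replicate 2 all 7 were called in the same direction, with log2 changes of −0.32 for Cdkn1a, −0.74 for Cdkn1b, −1.64 for Cdkn1c, −0.47 for Cdkn2a, 0.72 for Cdkn2b, −0.68 for Cdkn2c and −0.83 for Cdkn2d. In these bulk libraries, fewer cells that express a gene and less RNA per cell cannot be told apart.

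**Figure D1:**
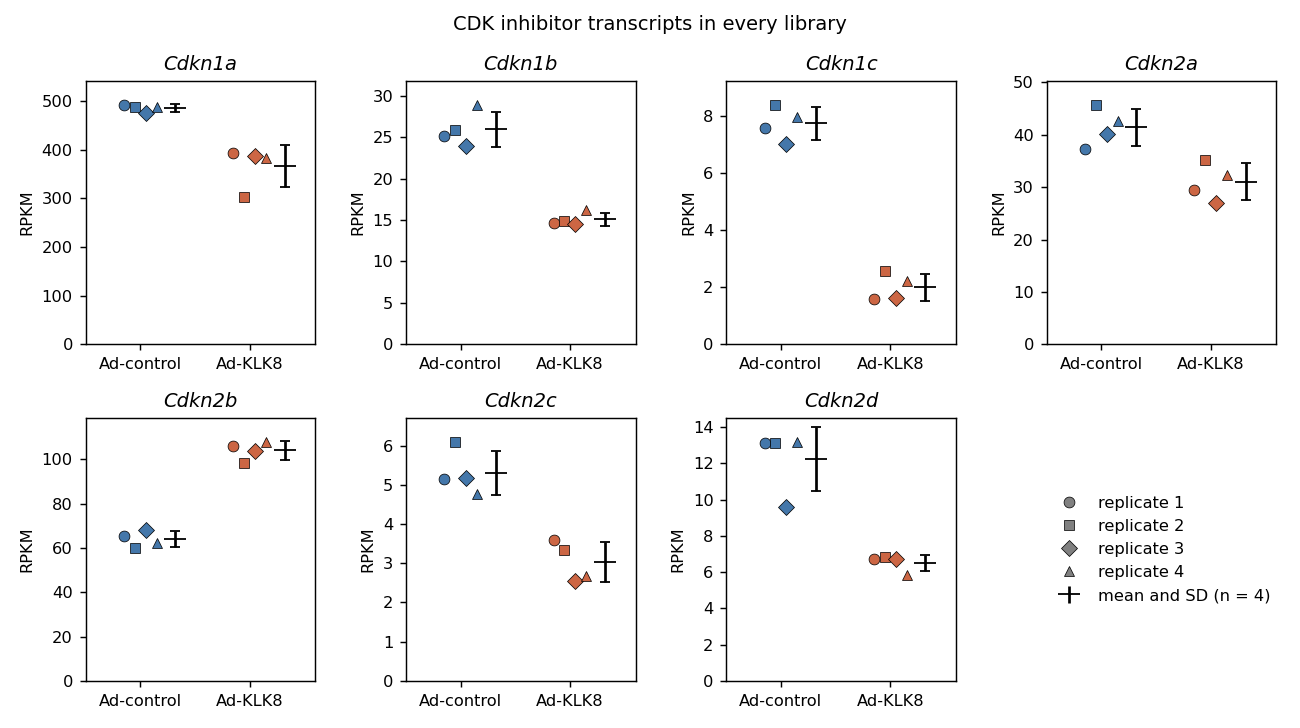
RPKM of each CDK inhibitor (vertical axes, from 0) in the 4 Ad-control and 4 Ad-KLK8 libraries, with one marker shape per replicate number and the mean and SD beside the points. Cdkn2b is higher in all 4 Ad-KLK8 libraries (98.3 to 108 RPKM against 60.0 to 68.2 RPKM) and the other 6 genes are lower, with Cdkn1c lowest relative to its control.

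Among the CIP/KIP genes, Cdkn1a, whose product p21 is the main p53-induced CDK inhibitor, stood at 492, 488, 475 and 488 RPKM in Ad-control replicates 1 to 4 and at 394, 302, 388 and 383 RPKM in Ad-KLK8 replicates 1 to 4. The Ad-control libraries lay within a coefficient of variation of 1.55%, against 11.8% in Ad-KLK8, where replicate 2 was the lowest. The mean went from 486 ± 7.52 to 367 ± 43.2 RPKM (SD, n = 4), a fall by 24.5% with a log2 change of −0.41 (SE 0.0788, limma adjusted p = 0.000663). Without Ad-KLK8 replicate 2 the log2 change was −0.32 (limma adjusted p = 9.74e-06). After median-of-ratios scaling it was −0.17 with a 95% interval from −0.35 to 0.02 (limma adjusted p = 0.0868), and the call was lost. Within the deposited values 34.1% of all tested genes fell more than Cdkn1a.

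Cdkn1b encodes p27, which restrains Cdk2 in resting cells and is removed by the Skp2 ubiquitin ligase. Its level was 25.1, 25.9, 24.0 and 28.9 RPKM in the Ad-control libraries and 14.7, 14.9, 14.5 and 16.2 RPKM in the Ad-KLK8 libraries. Every Ad-KLK8 value lay far below the lowest control value, and the spread within Ad-KLK8 was small. The mean fell by 42.0%, from 26.0 ± 2.09 to 15.1 ± 0.749 RPKM (log2 change −0.75, SE 0.0592, limma adjusted p = 8.61e-07), and 17.7% of the tested genes fell more. The lower call held after median-of-ratios scaling, at a log2 change of −0.51.

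Cdkn1c encodes p57, an inhibitor expressed from the maternal copy of an imprinted domain. It was low but measurable, at 7.57, 8.39, 7.03 and 7.97 RPKM in Ad-control and 1.59, 2.56, 1.62 and 2.22 RPKM in Ad-KLK8 libraries, or 230 to 265 and 59 to 91 recovered reads per library. All 4 Ad-KLK8 libraries were under the lowest control library, replicates 1 and 3 being the lowest. The mean fell by 74.2%, from 7.74 ± 0.582 to 2.0 ± 0.472 RPKM, which was the steepest fall of the 7 (log2 change −1.56, SE 0.104, limma adjusted p = 2.39e-07). At this level the pseudocount mattered, and with 0.1 in place of 1 the log2 change was −1.93. Only 3.08% of the tested genes fell more. An antisense gene, Gm44732, overlaps Cdkn1c on the opposite strand in GENCODE M21, and a gene of unsettled type, AC167363.2, overlaps Cdkn1a in the same way. Strand use in counting was not given in the sources used here, so reads of such partners cannot be told apart from those of Cdkn1c and Cdkn1a.

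Among the INK4 genes, Cdkn2b, whose product p15 is known as a target of transforming growth factor beta (TGF-beta), stood at 65.4, 60.0, 68.2 and 62.2 RPKM in Ad-control and at 106, 98.3, 104 and 108 RPKM in Ad-KLK8 libraries. The lowest Ad-KLK8 library was still well above the highest control library, and Ad-KLK8 replicate 2 was the lowest of its group. The mean rose 1.63-fold, from 63.9 ± 3.61 to 104 ± 4.25 RPKM (log2 change 0.70, SE 0.0489, limma adjusted p = 3.34e-07). Median-of-ratios scaling gave a log2 change of 0.94. Of all tested genes, 666, or 5.55%, rose more.

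Cdkn2a, which lies beside Cdkn2b and encodes p16 and Arf, moved the other way in the deposited values, at 37.2, 45.7, 40.1 and 42.6 RPKM in Ad-control and 29.5, 35.2, 27.0 and 32.4 RPKM in Ad-KLK8 libraries. Ad-KLK8 replicate 2, the highest of its group, came within a few RPKM of Ad-control replicate 1, the lowest of the controls. The mean fell by 25.1%, from 41.4 ± 3.63 to 31.0 ± 3.57 RPKM (log2 change −0.41, SE 0.0841, limma adjusted p = 0.00112). After median-of-ratios scaling the log2 change was −0.17 with a 95% interval from −0.36 to 0.03 (limma adjusted p = 0.103), and the call was lost. The third gene next to the locus, Mtap, an enzyme of methionine salvage, fell from 51.9 ± 3.67 to 30.0 ± 1.41 RPKM (log2 change −0.77, limma adjusted p = 4.22e-07). Thus 1 of 3 tested genes of the Ink4-Arf neighbourhood rose and 2 fell in the deposited values, and 1 of each was called after median-of-ratios scaling. Of all tested genes 25.7% were called higher and 52.0% lower, or 40.0% and 37.2% with the scaling.

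Cdkn2c, which encodes p18, was the lowest inhibitor in Ad-control, at 5.16, 6.10, 5.18 and 4.76 RPKM, and stood at 3.60, 3.34, 2.54 and 2.68 RPKM in Ad-KLK8 libraries. Replicates 1 and 2 were the higher of the Ad-KLK8 libraries and still lay below every control. Its mean fell by 42.7%, from 5.30 ± 0.570 to 3.04 ± 0.512 RPKM (log2 change −0.65, SE 0.0967, limma adjusted p = 0.000114). Cdkn2d, which encodes the p19 protein of the INK4 family, not to be confused with mouse Arf of the same size name, stood at 13.1, 13.1, 9.62 and 13.2 RPKM and at 6.72, 6.83, 6.70 and 5.87 RPKM. Ad-control replicate 3 was lower than its group and Ad-KLK8 replicate 4 lower than its own, without overlap between the groups. The mean fell by 46.8%, from 12.3 ± 1.77 to 6.53 ± 0.443 RPKM (log2 change −0.81, SE 0.0945, limma adjusted p = 1.73e-05). Both lower calls held after median-of-ratios scaling, at log2 changes of −0.45 for Cdkn2c and −0.59 for Cdkn2d.

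**Figure D2:**
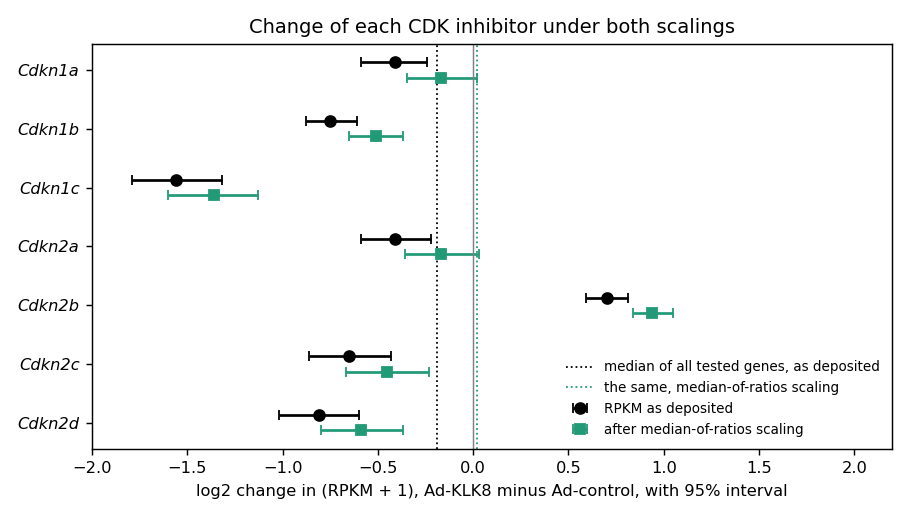
Log2 change in RPKM + 1 (horizontal axis, Ad-KLK8 minus Ad-control) of the 7 CDK inhibitors with 95% intervals, for the RPKM as deposited (black circles) and after median-of-ratios scaling (green squares), with dotted lines at the median of all tested genes. The intervals of Cdkn1a and Cdkn2a cross 0 after scaling, reaching 0.02 and 0.03, and that of Cdkn2b lies from 0.84 to 1.05.

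Levels per kilobase spanned a wide range among the 7. In Ad-control libraries the order was Cdkn1a, Cdkn2b, Cdkn2a, Cdkn1b, Cdkn2d, Cdkn1c and Cdkn2c, and the ranges of no 2 neighbours in that order overlapped. In Ad-KLK8 libraries the last places were exchanged, with Cdkn2c at 2.54 to 3.60 RPKM and Cdkn1c at 1.59 to 2.56 RPKM, and these were the only neighbours whose ranges overlapped. Cdkn1a was among the most abundant transcripts of the cells, at rank 90 to 98 of all genes in Ad-control and 134 to 185 in Ad-KLK8 libraries. Cdkn2b moved from rank 980 to 1122 to rank 559 to 624.

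The mix of inhibitor transcripts shifted from the CIP/KIP to the INK4 family. The sum of the 7 went from 642 ± 9.02 to 528 ± 43.7 RPKM, and that of the 3 CIP/KIP genes from 520 ± 9.16 to 384 ± 42.8 RPKM. The 4 INK4 genes together went the other way, from 123 ± 1.65 to 145 ± 3.72 RPKM, although 3 of them fell. Cdkn1a made up 75.6 ± 0.400% of the sum of the 7 in Ad-control and 69.2 ± 2.76% in Ad-KLK8, and Cdkn2b 9.96 ± 0.689% and 19.8 ± 0.993%. Within the INK4 family the share of Cdkn2b went from 52.0 ± 3.36% to 72.0 ± 2.48%. None of these sums and shares overlapped between the groups in the deposited values. After median-of-ratios scaling the sum of the 7 overlapped, at 590 ± 12.5 and 576 ± 50.2 RPKM, while the CIP/KIP sum stayed lower in Ad-KLK8, at 477 ± 11.0 and 418 ± 48.4 RPKM, and the INK4 sum higher, at 113 ± 2.68 and 158 ± 4.83 RPKM, without overlap. The shares do not depend on this scaling.

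Ratios of 2 genes within a library are untouched by any scaling of whole libraries. The ratio of Cdkn2b to Cdkn2a was 1.76, 1.31, 1.70 and 1.46 in Ad-control replicates 1 to 4 and 3.61, 2.79, 3.86 and 3.34 in Ad-KLK8 replicates 1 to 4. All Ad-KLK8 libraries were above all Ad-control libraries (means 1.56 ± 0.209 and 3.4 ± 0.457). Cdkn1a and Cdkn2a, the 2 genes whose calls depended on the scaling, kept overlapping ratios, with a mean of 11.8 ± 1.07 in Ad-control and 12 ± 2.53 in Ad-KLK8. Against Cdkn1c, Cdkn1a went from a ratio of 63.0 ± 4.13 to 195 ± 60.9, and against Cdkn1b from 18.8 ± 1.31 to 24.4 ± 3.11, without overlap. These ratios are descriptions, and those without overlap show unequal change of the paired genes.

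**Figure D3:**
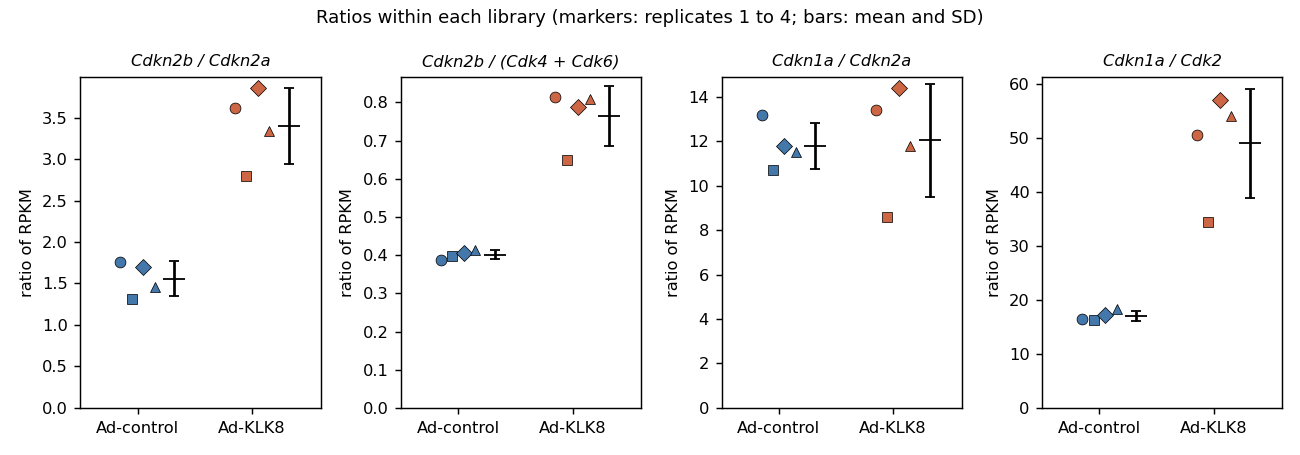
Ratio of RPKM values within each library (vertical axes, from 0) for Cdkn2b over Cdkn2a, Cdkn2b over the sum of Cdk4 and Cdk6, Cdkn1a over Cdkn2a and Cdkn1a over Cdk2, with marker shapes for replicates 1 to 4 and bars for the mean and SD of 4 libraries. Only the ratio of Cdkn1a to Cdkn2a overlaps between Ad-control and Ad-KLK8.

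Of the kinases that the INK4 proteins bind, Cdk4 went from 152 ± 10.5 to 125 ± 9.47 RPKM (log2 change −0.28, limma adjusted p = 0.00199), a call lost after median-of-ratios scaling (−0.04, limma adjusted p = 0.577), and Cdk6 rose from 7.71 ± 0.374 to 12.3 ± 0.528 RPKM (0.61, limma adjusted p = 1.06e-06). Their sum overlapped between the groups. Per unit of Cdk4 plus Cdk6, Cdkn2b stood at 0.387, 0.397, 0.405 and 0.414 in Ad-control and at 0.815, 0.648, 0.787 and 0.808 in Ad-KLK8 libraries, and the sum of the 4 INK4 genes at 0.773 ± 0.0573 and 1.06 ± 0.0802. Ad-KLK8 replicate 2 was the lowest of its group and still above every control. The D cyclins, which compete with INK4 proteins for these kinases, changed unequally: Ccnd1 fell from 45.6 ± 5.08 to 15.5 ± 0.547 RPKM (log2 change −1.49, limma adjusted p = 1.82e-08), while Ccnd2 rose from 74.0 ± 6.16 to 94.8 ± 7.81 RPKM (0.35, limma adjusted p = 0.000942). Ccnd3 went from 83.8 ± 2.65 to 73.1 ± 3.70 RPKM (−0.19, limma adjusted p = 0.00233), with a change of 0.05 and no call after median-of-ratios scaling.

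The kinase and the E cyclins that the CIP/KIP proteins block all fell. Cdk2 fell from 28.5 ± 1.64 to 7.61 ± 0.888 RPKM (log2 change −1.78, limma adjusted p = 8.87e-09), Ccne1 from 52.1 ± 4.55 to 4.86 ± 0.746 RPKM (−3.19, limma adjusted p = 1.2e-09) and Ccne2 from between 17.8 and 22.3 RPKM to between 0.173 and 0.507 RPKM (−3.99, limma adjusted p = 9.05e-10). The ratio of Cdkn1a to Cdk2 therefore went up, from 17.1 ± 0.912 to 49.1 ± 10.1, and that of Cdkn1b to Cdk2 from 0.916 ± 0.113 to 2.0 ± 0.262, although both inhibitors were lower. Cdkn1a relative to Pcna, the replication clamp that p21 also binds, went from 3.07 ± 0.110 to 16.8 ± 2.64, as Pcna fell from 159 ± 5.82 to 21.9 ± 1.03 RPKM (−2.80, limma adjusted p = 1.62e-10). Of the 12 tested cyclins and CDKs that the inhibitors bind, 2 rose and 9 fell, against 25.7% and 52.0% of all tested genes. The median log2 change of the 12 was −1.19, against −0.65 for the 7 inhibitors and −0.19 for all tested genes. After median-of-ratios scaling 2 of the 12 were higher and 7 lower, against 40.0% and 37.2% of all tested genes. The remaining gene, Ccnb2, named after its value was seen, stood at 2.40 ± 0.513 and 2.21 ± 0.691 RPKM (limma adjusted p = 0.583).

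**Figure D4:**
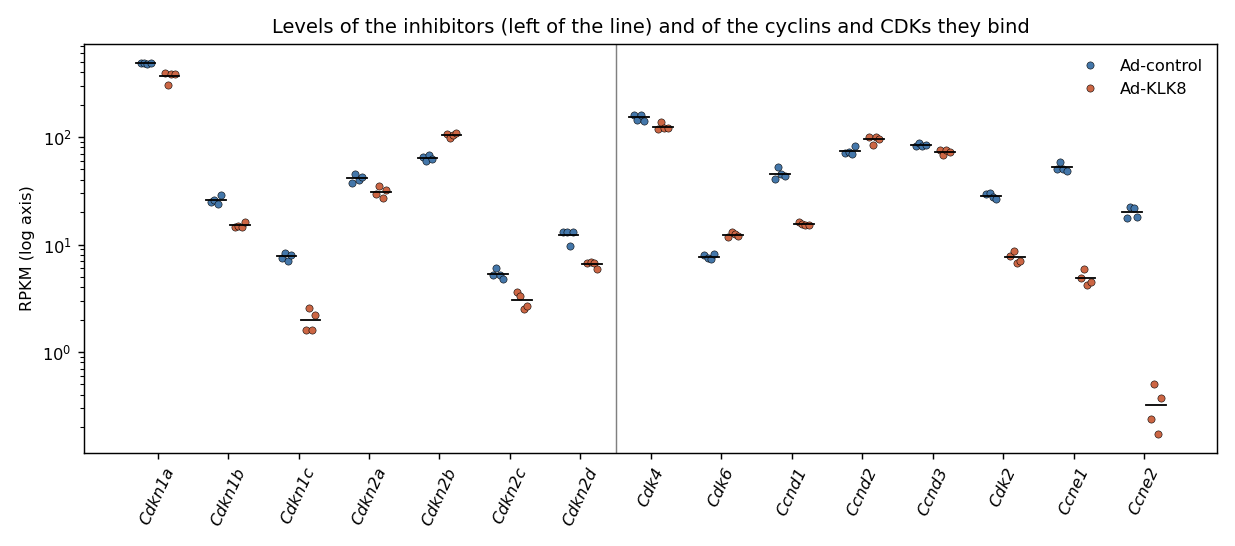
RPKM on a log axis of the 7 CDK inhibitors (left of the line) and of 8 cyclins and CDKs they bind (right) in the Ad-control (blue) and Ad-KLK8 (red) libraries, each point a library and each bar a mean of 4. Cdkn1a stays the highest inhibitor in both groups, Cdkn2b, Cdk6 and Ccnd2 are higher in Ad-KLK8, and Ccne2 is the lowest gene there, at 0.322 RPKM.

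Downstream of the inhibitors, the pocket proteins that CDKs inactivate and the E2F factors they hold were read out beside them. Rb1 fell from 11.3 ± 0.873 to 4.51 ± 0.187 RPKM (log2 change −1.16, limma adjusted p = 3.45e-08) and Rbl1 from 8.49 ± 0.469 to 1.99 ± 0.0654 RPKM (−1.66, limma adjusted p = 2.45e-09). Rbl2, which encodes p130, the pocket protein of resting cells, rose with Cdkn2b, from 3.05 ± 0.226 to 6.62 ± 0.341 RPKM (0.91, limma adjusted p = 1.74e-07). E2f1 fell from 15.6 ± 1.15 to 7.16 ± 0.689 RPKM (−1.03, limma adjusted p = 2.68e-07). Of 20 pocket protein, E2F and DREAM complex genes, 17 fell and 2 rose, against 52.0% and 25.7% of all tested genes. The list had a median log2 change of −0.99. With the scaling 15 were lower and 3 higher, against 37.2% and 40.0% of all tested genes. The second gene that rose was Tfdp2 (log2 change 0.17, limma adjusted p = 0.0258) and the remaining gene was Lin37 (0.08, limma adjusted p = 0.46), which was called higher after the scaling (0.30, limma adjusted p = 0.0167), both named after their values were seen. All 25 tested replication and proliferation genes fell, and all 25 were lower after median-of-ratios scaling too. Their median log2 change was −1.93, and Mcm3, a subunit of the replicative helicase, went from 72.0 ± 2.0 to 5.51 ± 0.594 RPKM.

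Of the ubiquitin ligase genes that control the stability of p21, p27 and p57, 6 of 14 tested fell and 3 rose. Of all tested genes 52.0% were called lower and 25.7% higher. Skp2, which marks p27 for destruction, fell from 8.64 ± 0.809 to 2.08 ± 0.131 RPKM (log2 change −1.64, limma adjusted p = 9.91e-09), beside the fall of Cdkn1b itself. Dtl, which directs p21 to degradation on chromatin-bound Pcna, fell from 11.2 ± 1.30 to 0.856 ± 0.0628 RPKM (−2.72, limma adjusted p = 1.2e-09). Cks1b, the Skp2 cofactor, went from 41.3 ± 1.93 to 31.6 ± 5.74 RPKM (−0.39, limma adjusted p = 0.00423), and its call was lost after median-of-ratios scaling (−0.15, limma adjusted p = 0.184). The 3 that rose were the general subunits Skp1a, Ddb1 and Rbx1, with log2 changes of 0.23 to 0.41, Rbx1 being named after its value was seen. With the scaling, 7 were called higher and 3 lower, against 40.0% and 37.2% of all tested genes. The median log2 change of the list went from −0.08 to 0.16. Protein levels of the inhibitors were not measured here.

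The factors that drive or silence inhibitor transcription were compared in 3 lists. Trp53, which encodes the activator of Cdkn1a, fell from 91.9 ± 3.54 to 48.8 ± 3.49 RPKM (log2 change −0.90, limma adjusted p = 9.16e-08), and its target and antagonist Mdm2, which Arf restrains, from 81.1 ± 3.74 to 45.0 ± 2.27 RPKM (−0.84, limma adjusted p = 7.78e-08). In the p53 pathway list 17 of 26 genes fell and 3 rose (median log2 change −0.35), against 52.0% and 25.7% of all tested genes. Pmaip1, a p53 target that promotes cell death, stood at −2.09. The 3 that rose, named after their values were seen, were Sesn1 (1.26), Ei24 (0.75) and Rrm2b (0.26). After median-of-ratios scaling 13 were lower and 8 higher, against 37.2% and 40.0% of all tested genes.

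Myc holds down Cdkn2b and Cdkn1a by binding Miz1, encoded by Zbtb17, which without Myc activates them. Myc and Zbtb17 both fell, Myc from 44.4 ± 2.06 to 12.4 ± 2.67 RPKM (log2 change −1.78, limma adjusted p = 1.37e-07) and Zbtb17 from 14.8 ± 0.998 to 6.77 ± 0.302 RPKM (−1.02, limma adjusted p = 5.29e-08). Klf4, an activator of Cdkn1a, fell from 61.1 ± 2.55 to 14.1 ± 0.665 RPKM. Tgfb3 rose from 15.0 ± 0.369 to 27.4 ± 1.94 RPKM (0.82, limma adjusted p = 1.67e-07), as did Tgfb2 (0.78) and the receptor gene Tgfbr2 (0.43), beside the rise of Cdkn2b. With Foxo4 (0.32) these were the 4 of 21 genes in the list of Myc, FoxO and TGF-beta regulators that rose. In that list 10 fell (median log2 change −0.11), and of all tested genes 25.7% were called higher and 52.0% lower. Unlike Tgfb2 and Tgfb3, the third TGF-beta ligand gene, Tgfb1, fell from 40.4 ± 1.66 to 26.3 ± 3.01 RPKM (−0.60, limma adjusted p = 1.55e-05). It remained lower after median-of-ratios scaling (−0.37, limma adjusted p = 0.000641). Of the Smad genes in the list, Smad2 and Smad4 were called lower in the deposited values (−0.12 and −0.13). With the scaling they stood at 0.09, not called, and at 0.10, called higher. Smad3 and Smad7 were not called in the deposited values (−0.04 and 0.12) and were called higher with the scaling (0.20 and 0.35). Tgfb1, Tgfb2, Tgfbr2, Smad2, Smad3, Smad4, Smad7 and Foxo4 were named after their values were seen. Foxo1 and Foxo3, activators of Cdkn1b, passed no test in the deposited values, at log2 changes of −0.03 and −0.06. Both stood at 0.18 and were called higher after median-of-ratios scaling. With that scaling 12 of the 21 were higher and 7 lower, against 40.0% and 37.2% of all tested genes, and the list median was 0.13.

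Polycomb proteins silence the Ink4-Arf locus. In the list of regulators of this locus 14 of 21 genes fell while 5 rose (median log2 change −0.57), or 13 and 7 after median-of-ratios scaling. Of all tested genes 52.0% were called lower and 25.7% higher, or 37.2% and 40.0% after the scaling. The list joins Polycomb genes with other regulators of the locus, so its counts and median are not those of silencers alone. Ezh2, the histone methyltransferase of Polycomb complex 2, fell from 33.6 ± 2.08 to 5.34 ± 0.511 RPKM (log2 change −2.45, limma adjusted p = 1.08e-09). Bmi1 of complex 1 fell from 11.5 ± 0.496 to 7.64 ± 0.287 RPKM (−0.53, limma adjusted p = 2.18e-06). Regulators outside Polycomb fell too, among them Ets1 (−1.45), Ets2 (−0.62), Dmtf1 (−0.71) and Kdm6b (−0.57), named after their values were seen. Of the locus's genes, Cdkn2b rose with either scaling. Cdkn2a fell in the deposited values, a call lost after median-of-ratios scaling (−0.17, limma adjusted p = 0.103). The genes of the list that rose were Cbx7, from 0.962 ± 0.0736 to 1.18 ± 0.0594 RPKM (0.15, limma adjusted p = 0.0371), and, named after their values were seen, Ring1 (0.45), Id1 (0.77), Id2 (0.41) and Id3 (0.36). Around Cdkn1c, 7 genes of its imprinted domain were tested, Cdkn1c left aside, of which 4 fell and 2 rose, with and without that scaling (median log2 change −0.37). The shares of all tested genes given for the Polycomb list apply here too. Nap1l4 went from 52.6 ± 1.02 to 35.2 ± 1.83 RPKM and Cd81 from 350 ± 1.88 to 481 ± 7.70 RPKM, and the other gene that rose was Osbpl5 (0.14, limma adjusted p = 0.0335), named after its value was seen.

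**Figure D5:**
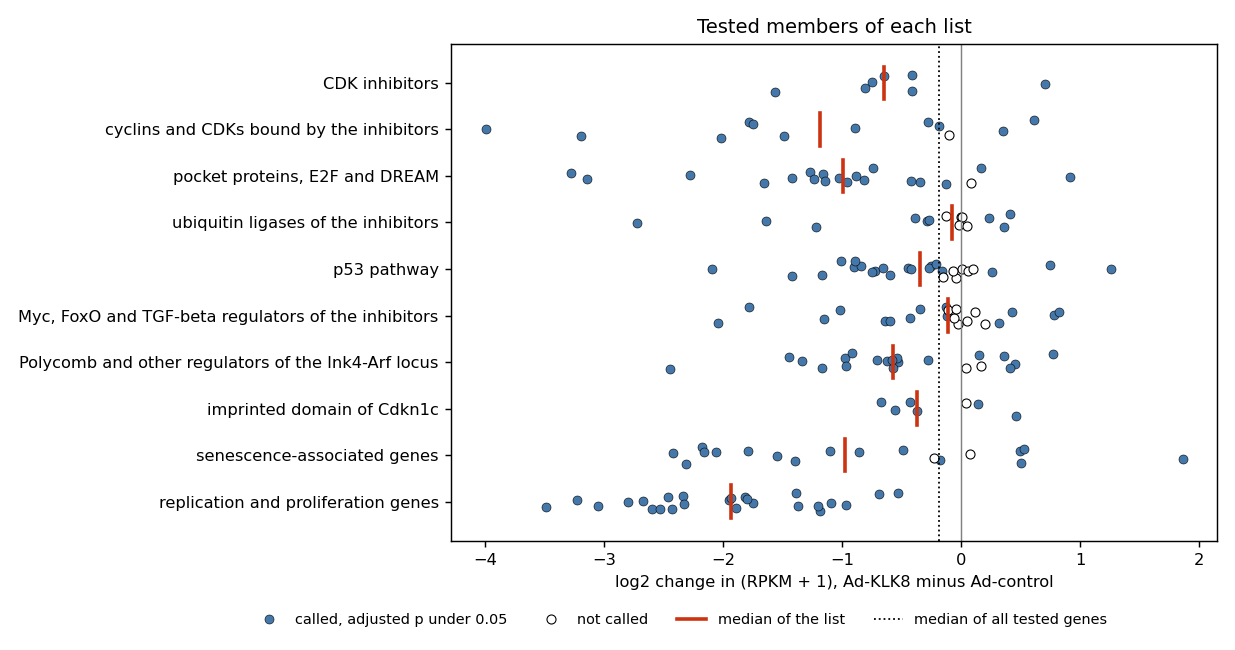
Log2 change in RPKM + 1 (horizontal axis, Ad-KLK8 minus Ad-control) of the tested members of 10 gene lists, filled where called and open where not, with a red line at the median of each list and a dotted line at the median of all tested genes, −0.19. Among the CDK inhibitors only Cdkn2b lies to the right of 0, and all 25 replication and proliferation genes lie to the left.

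Cdkn1a, Cdkn2a and Cdkn2b are also read as markers of senescence, the lasting arrest of stressed cells. Of all tested genes 52.0% were called lower and 25.7% higher, or 37.2% and 40.0% after median-of-ratios scaling. Of 18 tested senescence-associated genes other than the inhibitors, 12 fell and 4 rose (median log2 change −0.98), or 11 and 5 after that scaling. Igfbp3 rose from 59.3 ± 4.13 to 218 ± 4.53 RPKM (log2 change 1.86), and the others that rose, named after their values were seen, were Ccl2 (0.50), Igfbp7 (0.49) and Timp1 (0.53), as Cdkn2b did. The list is mixed, since 3 of the 12 that fell, Lmnb1 (−1.55), Hmgb1 (−0.49) and Hmgb2 (−2.31), are genes whose decline is itself known from senescent cells, so its median has no single direction. Lmnb1 and Hmgb1 were named after their values were seen. The phosphatase gene Cdkn3, which shares only the symbol stem with the 7, stood at 1.29 ± 0.372 and 0.819 ± 0.556 RPKM and was not called (limma adjusted p = 0.1).

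The genes whose profiles over the 8 libraries were closest to each inhibitor were found by the root-mean-square difference of log2(RPKM + 1) centred on the Ad-control mean, a description with no test. For Cdkn2b these were Laptm4a (difference 0.0385 log2) and Kctd10 (0.0389), for Cdkn1a Pla2g4a (0.0406) and Naa20 (0.0514), and for Cdkn1b Mettl22 (0.0354) and Med7 (0.0356). Cdkn2a was closest to Zfat (0.0595) and Ncaph2 (0.0632), Cdkn2c to Ttl (0.071) and Paip2b (0.0722), Cdkn2d to Zfp940 (0.0887) and Zfp639 (0.0912), and Cdkn1c to Cenpi (0.0807) and Chchd10 (0.0961). No inhibitor was among the closest genes of another.

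Markers of other cell types moved beside the inhibitors. Of all tested genes 25.7% were called higher and 52.0% lower, or 40.0% and 37.2% after median-of-ratios scaling. All 8 fibroblast markers rose, before and after median-of-ratios scaling, and all 4 tested endothelial markers fell, 3 of them after that scaling, with the sums already given. Of 6 mesothelial markers 5 rose and 1 fell, with either scaling. Their sum was 198 to 255 RPKM in Ad-control and 644 to 711 RPKM in Ad-KLK8 libraries. Upk3b, the largest part of the Ad-KLK8 sum, went from 69.9 ± 13.9 to 405 ± 19.5 RPKM. Krt19, the 1 that fell, had the largest change of the 6, from 22.5 ± 8.43 to 0.758 ± 0.213 RPKM (log2 change −3.68). All 3 tested immune markers fell, 2 of them after the scaling, with sums of 112 to 247 and 68.6 to 101 RPKM. Of 4 tested smooth muscle and pericyte markers 2 fell and none rose, or 1 fell and 1 rose after the scaling, with overlapping sums of 622 to 937 and 725 to 1021 RPKM. Epithelial markers summed to 15.9 to 28.2 and 26.6 to 31.9 RPKM, with 1 of 3 tested higher, or 2 of 3 after the scaling. The part of these shifts in the changes of the 7 inhibitors was not tested.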

How the data were processed

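Per the labels' protocols, TRIzol was used to extract RNA, and a TruSeq kit that keeps the strand to prepare mRNA libraries. The submitters' processing notes name Trimmomatic, HISAT2, SAMtools, Cufflinks and DESeq, and a human build, GRCh38, although the genes are mouse genes, so no gene coordinates are given beyond the RefSeq promoter windows. The deposited values are RPKM per gene, computed by the authors. In all 17461 genes above 0 the values were whole multiples of 1 read (tolerance 0.001 read), which gave the read counts quoted. A count of 0 allows up to 3 reads, or 0.160 to 0.190 RPM, for counting error only. Symbols turned into dates in the table (12) were restored from their Entrez identifiers.

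Groups were compared with limma 3.58.1 in R 4.3.3 (trended prior, Benjamini-Hochberg adjustment) on log2(RPKM + 1) for genes averaging 0.5 RPKM or more, and Klk8 with an exact permutation test. The procedure was also run on simulated reads with few genes changed and the same spread in every library. These data differ in both, so that run does not gauge the calls made here. Alternatives covered pseudocount, filter, scaling, prior, weights, replicate block and leaving out each library. The genes named were the 7 inhibitors, Klk8, a fixed set of direct partners and regulators, up to 5 genes per list with the smallest adjusted p and averaging 1 RPKM or more, from which the text takes those it describes, and the 2 closest profiles per inhibitor; exceptions are marked. The members and lists were chosen with earlier results of these data known.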

Additional observations from a re-analysis of the deposited data

Results flagged for a closer look

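In each group of 4 libraries, values far from the other 3 by Dixon's criterion were looked for in 84 of the named genes. Of 168 groups 20 held one, where chance gives about 1 in 20. Among the inhibitors, Cdkn1a was low in Ad-KLK8 replicate 2, at 302 RPKM against 383 to 394, and Cdkn2d was low in Ad-control replicate 3, at 9.62 RPKM against 13.1 to 13.2, and in Ad-KLK8 replicate 4, at 5.87 RPKM against 6.70 to 6.83. Ad-KLK8 replicate 2 was also the distant library for Klk8 (3263 RPKM against 1159 to 1354), Cdk4 (139 against 119 to 122), Ddb1 (342 against 290 to 294), Timp1 (938 against 1062 to 1076), Pcna (23.4 against 21.3 to 21.5), Tgfb1 (30.8 against 24.4 to 25.2), Cdkn3 (1.64 against 0.480 to 0.668) and Pla2g4a (42.2 against 54.5 to 55.0), the last chosen for its likeness to Cdkn1a over these libraries. The value of 0 for Cdh5 in that library, against 0.0132 to 0.0134 RPKM, is a step from 1 read to 0 and lies under the floor of 3 reads. In the remaining groups the distant values were 8.19 RPKM for E2f1 in Ad-KLK8 replicate 3, 4.83 for Zfp639 in Ad-KLK8 replicate 4, 1.07 for Cbx7 in Ad-control replicate 1, 19.6 for Osbpl5 in Ad-control replicate 2, 19.7 for Chchd10 and 0.220 for Pecam1 in Ad-control replicate 3, and 7.79 for Rbl1 and 65.5 for Igfbp3 in Ad-control replicate 4.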

How the results depend on the processing

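Across 22 alternative settings, 148 of 152 inhibitor values kept their direction and side of the threshold, none reversed and 4 lost the call, those of Cdkn1a (limma adjusted p = 0.0868 and 0.0874) and Cdkn2a (0.103 and 0.0957) under median-of-ratios and upper-quartile scaling. The log2 changes ranged from −0.52 to −0.17 for Cdkn1a, −0.82 to −0.51 for Cdkn1b, −1.98 to −1.26 for Cdkn1c, −0.47 to −0.17 for Cdkn2a, 0.65 to 0.94 for Cdkn2b, −0.81 to −0.36 for Cdkn2c and −0.91 to −0.56 for Cdkn2d. A minimum mean of 5 RPKM left 5 inhibitors to test, without Cdkn1c and Cdkn2c. Leaving out each library gave 8943 to 9397 called genes against 9322, and a voom fit of the recovered reads, chosen after seeing the data, 9330. Libraries of the same replicate number showed no shared deviation (correlations −0.0905 to 0.0106, against −0.0828 to 0.0956 for different numbers). Such values cannot settle whether the libraries were paired, which the labels do not say. With a replicate block 9170 genes and all 7 inhibitors were called. The Klk8 difference ranged from −0.04 to 0.46 with a library left out, reversing without Ad-KLK8 replicate 2 (−0.04, exact p = 0.771). Of 1617 values for the other named genes checked this way 47 lost and 6 gained a call and 15 reversed: Ccnd3 (0.05 under upper-quartile and median-of-ratios scaling), Foxo1 (0.18, 0.18 and, under quantile normalization, 0.23), Foxo3 (0.18, 0.18 and 0.12), Smad2 (0.09, 0.09 and 0.14), Smad4 (0.10, 0.10 and 0.10) and Zfat (0.01 under quantile normalization). Smad3, outside that check, went from −0.04 to 0.20 with median-of-ratios scaling. The cause was not tested. Low read numbers limit the precision of Cdkn1c, at 59 to 91 reads per Ad-KLK8 library.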
